A study of Mus musculus with 40 samples.

Results

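The 9 genes examined here, Tdo2, Afmid, Kmo, Kynu, Haao, Acmsd, Qprt, Nampt and Nnmt, encode the enzymes that carry tryptophan to NAD in the liver, together with those that recover or remove nicotinamide. They were chosen by gene symbol and are 9 of the 21448 gene symbols in the deposited table, covered by 15 of its 30146 probes. The data came from livers of wild-type Crl:CD1(ICR) mice given GenX by oral gavage for 90 days. GenX is the ammonium salt of a short perfluorinated ether acid used in making fluoropolymers, and deionized water was its vehicle. The 8 groups were males and females given 0 (controls), 0.1, 0.5 or 5 mg per kg of body weight a day, with 5 mice in each, and no group carried a transgene or deletion. RNA was measured in sections of fixed, paraffin-embedded liver with TempO-Seq, in which paired DNA probes that sit side by side on an RNA are joined, amplified and sequenced.

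The liver is the main organ that makes NAD from tryptophan. Tryptophan 2,3-dioxygenase (Tdo2) opens the indole ring, and arylformamidase (Afmid), kynurenine monooxygenase (Kmo), kynureninase (Kynu) and 3-hydroxyanthranilate dioxygenase (Haao) then act in order. The product of Haao is an unstable intermediate. It either closes into quinolinate, which Qprt passes on toward NAD, or is taken by Acmsd into full oxidation. Nampt returns nicotinamide to NAD, whereas Nnmt methylates nicotinamide for excretion.

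Of the 40 libraries, 39 were used, with totals of 10341341 to 15562253 reads. The library of mouse 355, a female at 0.5 mg/kg, held 6711981 reads, more than 2 SD below the mean, and was left out, so that group has 4 mice. Counts clustered at multiples of a first peak of 20.8 to 49.8 reads, which puts 287244 to 656743 captured molecules behind a library. The median per group was 329947 molecules in male controls and 591295 in males at 5 mg/kg, against 418492 in female controls and 320470 in females at 5 mg/kg. Markers of hepatocytes summed to 34820 to 42330 CPM (normalized counts scaled to a common library size) in male controls for 6 genes including Alb and Ttr. Those of Kupffer cells summed to 48.7 to 109 CPM over 7 genes in the same mice. Probe capture differs between genes, so these sums do not give the share of each cell type.

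On the mouse genome GRCm38 with GENCODE vM21 annotation, the genes lie on separate chromosomes except Kmo and Acmsd. Tdo2 spans chr3:81957090-81976202 on the minus strand and Afmid chr11:117825924-117839908 on the plus strand. Kmo spans chr1:175620381-175662116 and Acmsd chr1:127729413-127767978, both on the plus strand. Kynu lies at chr2:43555329-43682715 on the plus strand and Haao at chr17:83831156-83847963 on the minus strand. Qprt lies at chr7:127107114-127122226 on the minus strand, Nampt at chr12:32819545-32853349 on the plus strand and Nnmt at chr9:48591877-48605153 on the minus strand.

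RefSeq promoters (GRCm38.p6, the 250 bases before the annotated start) were found for 7 of the 9 genes. The windows of Afmid, Nampt and Acmsd held no annotated exon. Those of Afmid and Nampt are shown because these genes moved in opposite directions in males. Both are on the plus strand, 5′ to 3′, at chr11:117825669-117825918 and chr12:32820085-32820334. Capitals mark AGGTCA on either strand, the core to which many nuclear receptors, the PPARs among them, bind in pairs.
Afmid: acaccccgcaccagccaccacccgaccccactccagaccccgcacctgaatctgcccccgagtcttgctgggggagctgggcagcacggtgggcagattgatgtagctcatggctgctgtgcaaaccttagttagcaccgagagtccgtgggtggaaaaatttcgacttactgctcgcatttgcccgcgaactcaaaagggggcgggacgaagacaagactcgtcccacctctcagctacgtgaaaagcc
Nampt: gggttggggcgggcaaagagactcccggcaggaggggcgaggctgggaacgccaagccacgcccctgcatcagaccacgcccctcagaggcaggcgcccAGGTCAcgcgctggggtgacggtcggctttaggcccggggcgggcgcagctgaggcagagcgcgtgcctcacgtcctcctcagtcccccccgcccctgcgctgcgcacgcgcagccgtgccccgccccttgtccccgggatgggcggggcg
The Nampt window is rich in G and C (75.6%, with 27 CpG), and that of Afmid less so (59.6%, 15 CpG), against a median of 52.0% over all promoters. AGGTCA occurs once in the Nampt window, 151 bases before the start, but not in that of Afmid. It also occurs in the windows of Tdo2 (6 bases before the start), Haao (58) and Acmsd (232), but not in those of Kmo and Qprt. The windows of Tdo2 and Haao lay wholly in annotated exons, and those of Kmo and Qprt each had 197 of 250 bases in exons. No GENCODE transcript was found to begin at the start used for Tdo2. Haao was called lower in males and Nampt higher, with the motif in both windows. A link between the motif and the changes was not tested. Of 27025 promoter windows of the same length, 13.8% held AGGTCA. The paired form is AGGTCA, any base and AGGTCA again. It was searched on both strands and contains the shorter motif. It was in none of the 7 windows and in 0.037% of all promoters. A match in these letters describes the sequence and does not show a bound site.

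At 5 mg/kg, males showed decreased expression of 4 enzymes of the route, Afmid, Kynu, Haao and Qprt, and increased expression of Nampt. In females at the same dose only Kynu was called. Tdo2 and Kmo passed the test in neither sex at any dose. Differences were tested with edgeR's quasi-likelihood test at a false discovery rate of 10%, on the most counted probe of each gene, and 8 of the 9 genes passed the filter on low counts. In males at 5 mg/kg, 5 of these 8 were called, beside 9.35% of the 12412 genes tested. The 4 lower ones compare with 3.75% of all genes called lower, and the 1 higher one with 5.59% called higher. The median log2 fold change of the 8 genes was -0.74 in these males, and that of all genes tested was 0.11 with TMM scaling and 0.04 with DESeq2's size factors. In females at 5 mg/kg, 1 of 8 was called, beside 4.09% of all genes (2% lower, 2.09% higher), with a median of -0.11 against -0.01 over all genes. With the shallow library of mouse 355 added to the fit, 2 of 8 (Kynu and Nampt) were called in males at 5 mg/kg and none in females, where Kynu had an edgeR adjusted p of 0.311 at a nearly equal change.

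At 0.5 mg/kg, 3 of 8 genes were called in males, Kynu and Qprt lower and Nampt higher, beside 2.61% of all genes (0.733% lower, 1.88% higher). None was called in females at that dose by edgeR or DESeq2, beside 0.201% of all genes, and 1 of the 8, Kynu, had an unadjusted p below 0.05. At 0.1 mg/kg, neither tool called any of the 8 in either sex. The background there was 0.0403% of genes in males, where 1 of the 8 (Nampt) had an unadjusted p below 0.05, and 0% in females, where none did.

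The same libraries carried a shift in part of the hepatocyte markers. The summed level of the 6 hepatocyte markers was 19390 to 27100 CPM in males at 5 mg/kg and 18320 to 27370 CPM in females at 5 mg/kg, against 28190 to 45760 CPM in female controls. In each sex, 4 of the 6 (Apoa1, Cps1, Ass1 and Serpina1a) were called lower, and Alb and Ttr were not called. The median log2 fold change over the list was -1.03 in males (from -1.65 to -0.07) and -0.82 in females (from -2.08 to -0.1). In bulk tissue, fewer hepatocytes and less of an RNA per hepatocyte cannot be told apart. Kynu was called lower in both sexes at 5 mg/kg, and Afmid, Haao and Qprt in males and not in females. The difference between the sexes in the change passed its own test for Afmid (edgeR adjusted p = 0.00904). It did not for Haao (0.126) or Qprt (0.408). Of the other lists, Col1a1 and Col3a1 of stellate cells were called higher and Clec4g of endothelium lower in males at 5 mg/kg, and edgeR called none of 7 Kupffer cell, 3 bile duct or 5 lymphocyte markers at that dose in either sex. Unadjusted p values were below 0.05 for 2 Kupffer cell, 1 bile duct and 1 lymphocyte marker in males and for 0, 1 and 4 in females, and DESeq2 called 1 Kupffer cell marker in males. The stellate list summed to 64.0 to 129 CPM in male controls and 157 to 193 CPM in males at 5 mg/kg. Its 6 markers went both ways there, with log2 fold changes from -1.11 to 2.45 and a median of 0.89. Those other than Col1a1 and Col3a1 were not called, and Clec4g was the only one called of 6 endothelial markers. The 4 adipocyte markers were too low to test, with at most 3.14 CPM in sum in any mouse. The part of these shifts in the results on the pathway was not tested.

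**Figure D1:**
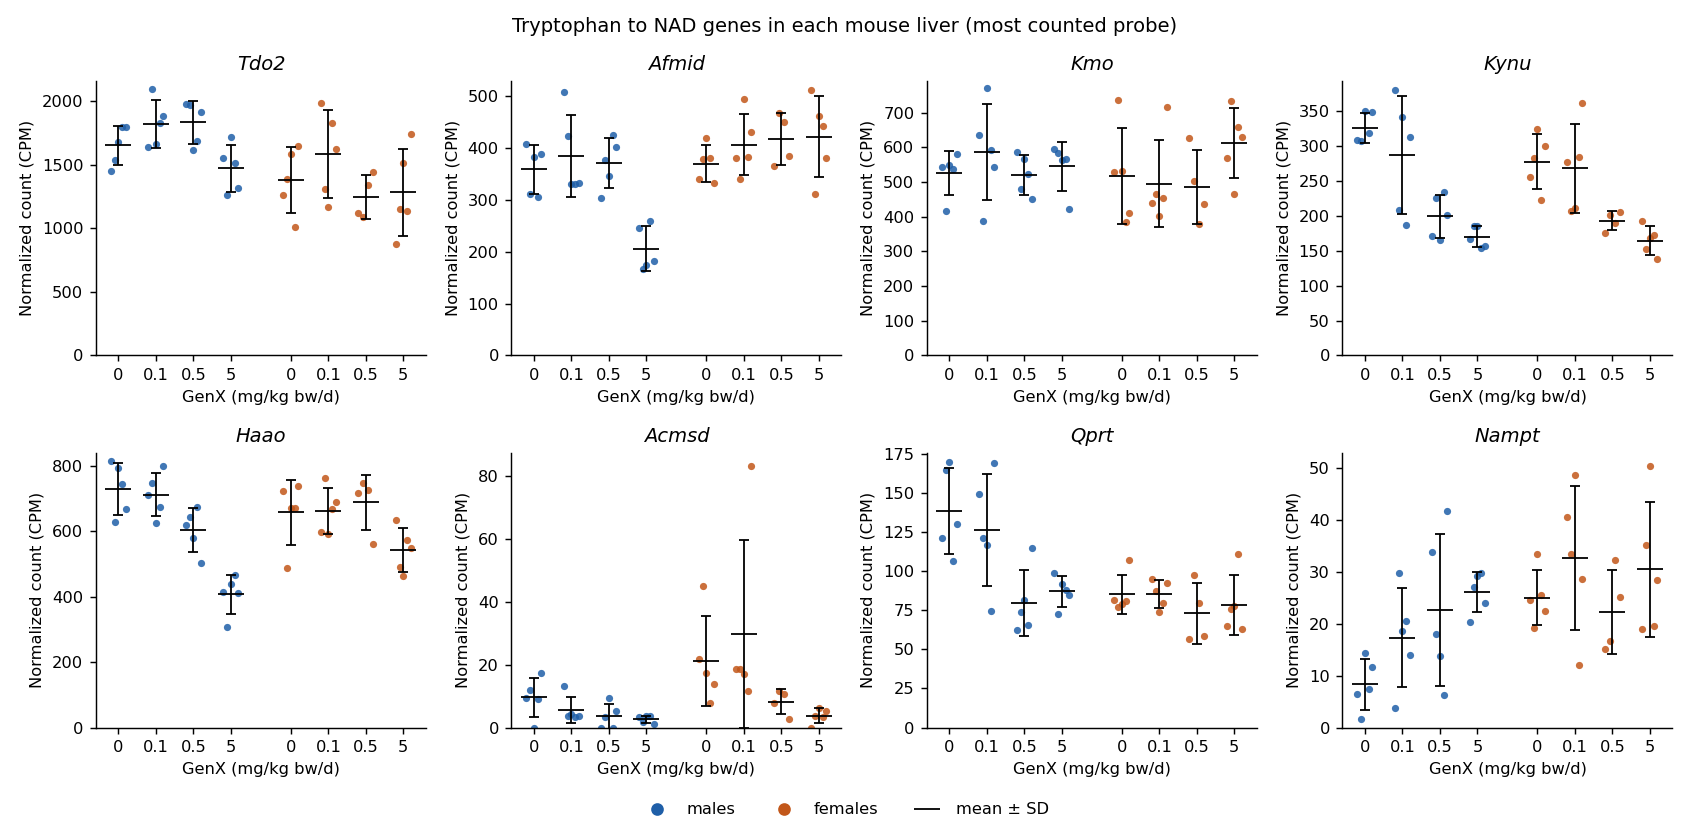
Normalized counts (CPM, linear axes from 0) of the 8 detected genes in each mouse, by dose of GenX in males (blue) and females (orange), with the mean and SD in black; lower bars that pass 0 are cut there. Afmid, Kynu, Haao and Qprt of the 5 males at 5 mg/kg lie below all male controls, and Kynu and Acmsd of the 5 females at 5 mg/kg lie below all female controls. The share of all genes with such separation is not given here.

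Tdo2, the entry enzyme and rate-limiting in the liver, measured 1653 ± 154 CPM in male controls (SD, n = 5) and 1473 ± 186 CPM in males at 5 mg/kg. In females the corresponding levels were 1378 ± 259 and 1284 ± 342 CPM. The log2 fold change was -0.17 (SE 0.15, edgeR adjusted p = 0.711) in males and -0.10 (SE 0.15, adjusted p = 1.0) in females. The groups overlapped in both sexes. Kmo, which hydroxylates kynurenine on the outer mitochondrial membrane, measured 526 ± 63.7 CPM in male controls and 546 ± 71.1 CPM at 5 mg/kg. In females it measured 519 ± 139 and 612 ± 101 CPM. Its log2 fold change at 5 mg/kg was 0.05 (SE 0.17, edgeR adjusted p = 1.0) in males and 0.24 (SE 0.17, adjusted p = 0.65) in females. The gene between Afmid and Kynu in the route showed no called difference where both of these neighbours did.

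Afmid, which cleaves the formyl group from N-formylkynurenine, read 407, 311, 383, 305 and 388 CPM in the 5 male controls. It read 246, 166, 175, 260 and 182 CPM in the 5 males at 5 mg/kg. Every male at that dose lay below every male control. The mean of 359 ± 47.3 CPM (SD, n = 5) became 206 ± 43.6, a log2 fold change of -0.80 (SE 0.15, edgeR adjusted p = 0.000138). At 0.1 and 0.5 mg/kg the male means were 384 ± 79.5 and 370 ± 48.0 CPM, within the spread of the controls, and the step from 0.5 to 5 mg/kg was itself called, at -0.85 (SE 0.15, adjusted p = 0.000196). Female controls read 340, 378, 418, 381 and 332 CPM and females at 5 mg/kg read 511, 311, 462, 442 and 380 CPM. The female groups overlapped, with 3 treated mice above all controls and 1 below. The log2 fold change in females was 0.19 (SE 0.15, edgeR adjusted p = 0.777). The difference between the sexes in this change passed its own test, at 0.99 (SE 0.21, edgeR adjusted p = 0.00904, female change minus male change). Afmid was the 1 of 8 genes called in that contrast, beside 1.19% of all genes. No gene of the 8 was called for a sex difference in change at 0.5 mg/kg (0.322% of all genes, 2 of 8 at an unadjusted p below 0.05) or 0.1 mg/kg (0% of all genes, none of 8 below 0.05), by edgeR or DESeq2.

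Kynu, a vitamin B6-dependent hydrolase, was the only gene of the 9 that was called in both sexes. Male controls read 308, 307, 351, 319 and 349 CPM, males at 0.5 mg/kg read 171, 226, 166, 234 and 201 CPM, and males at 5 mg/kg read 167, 185, 186, 155 and 157 CPM. Both treated groups lay wholly below the controls. The log2 fold change was -0.71 (SE 0.16, edgeR adjusted p = 0.00787) at 0.5 mg/kg and -0.94 (SE 0.16, adjusted p = 3.33e-05) at 5 mg/kg. Female controls read 256, 282, 325, 223 and 301 CPM, and females at 5 mg/kg read 193, 152, 168, 172 and 138 CPM. All 5 treated females were below all female controls, with a log2 fold change of -0.75 (SE 0.16, edgeR adjusted p = 0.00214). The 4 females at 0.5 mg/kg, at 176, 201, 191 and 206 CPM, were also below all controls, but the change of -0.52 (SE 0.17, adjusted p = 0.485) did not pass. The step from 0.5 to 5 mg/kg was not called in males (-0.23, SE 0.16, edgeR adjusted p = 0.704) or in females (-0.23, SE 0.17, adjusted p = 0.726). The female and male changes at 5 mg/kg differed by 0.19 (SE 0.23, edgeR adjusted p = 1.0). At 0.1 mg/kg the males were spread widely, from 188 to 381 CPM.

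Haao, an iron-dependent dioxygenase that makes the precursor of quinolinate, read 814, 629, 792, 744 and 668 CPM in male controls. Males at 0.5 mg/kg read 619, 642, 579, 675 and 503 CPM, and males at 5 mg/kg read 413, 308, 439, 466 and 411 CPM. The highest dose lay below all controls, whereas the middle dose overlapped them. The log2 fold change was -0.27 (SE 0.13, edgeR adjusted p = 0.259) at 0.5 mg/kg and -0.84 (SE 0.13, adjusted p = 3.29e-06) at 5 mg/kg, and the step between these doses was called (-0.57, SE 0.13, adjusted p = 0.00539). Counted in molecules, the change at 0.5 mg/kg was called as well (edgeR adjusted p = 0.0723), which made 4 of 8 genes called at that dose. Haao and Afmid were the 2 of 8 genes called between 0.5 and 5 mg/kg in males, beside 3.01% of all genes. In females none of the 8 was called for this step by edgeR or DESeq2, beside 1.38% of all genes, and 1 of the 8, Haao, had an unadjusted p below 0.05. Female controls read 722, 489, 670, 672 and 738 CPM and females at 5 mg/kg read 635, 490, 465, 572 and 548 CPM. These groups overlapped, and the change of -0.28 (SE 0.13, edgeR adjusted p = 0.258) was not called. The difference between the sexes at 5 mg/kg was 0.56 (SE 0.18, edgeR adjusted p = 0.126). It passed with DESeq2, with DESeq2's size factors in edgeR and with counts in molecules, each of which called 2 of the 8 genes in this contrast.

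**Figure D2:**
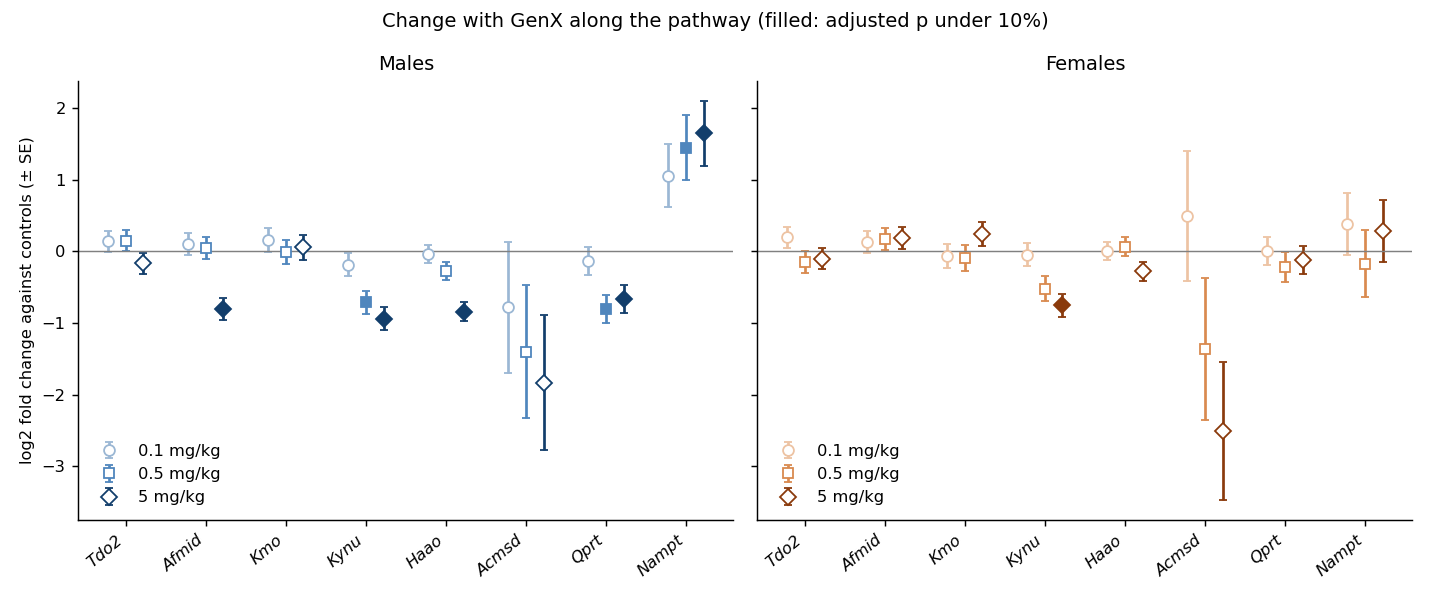
Log2 fold change against controls of the same sex (vertical axis, ± SE) for the 8 detected genes in the order of the route, in males (left) and females (right), at 3 doses; filled symbols passed a false discovery rate of 10% by edgeR. In males at 5 mg/kg, 4 filled symbols lie between -0.67 and -0.94 and Nampt at 1.65, and in females the filled symbol is Kynu at -0.75.

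Qprt, which joins quinolinate to phosphoribosyl pyrophosphate, was called between untreated males and females on its most counted probe. Male controls read 122, 165, 170, 106 and 130 CPM and female controls read 81.8, 77.0, 79.2, 80.8 and 107 CPM. The male mice were higher except that the lowest male, at 106.4 CPM, overlapped the highest female, at 106.9 CPM. The difference was -0.70 on the log2 scale (SE 0.20, edgeR adjusted p = 0.0388, female minus male). The call was lost without male control 102 or 103 (edgeR adjusted p = 0.125 and 0.136) and with mouse 355 included (0.29). On the other Qprt probe the difference was -0.08 (SE 0.46, edgeR adjusted p = 1.0). Males at 0.5 mg/kg read 62.3, 73.8, 81.3, 65.5 and 115 CPM and males at 5 mg/kg read 98.6, 72.3, 91.9, 87.8 and 85.0 CPM. At the highest dose all 5 males were below all male controls, and their mean of 87.1 ± 9.74 CPM stood beside 85.1 ± 12.3 CPM in female controls. The log2 fold change was -0.80 (SE 0.20, edgeR adjusted p = 0.0179) at 0.5 mg/kg and -0.67 (SE 0.20, adjusted p = 0.0256) at 5 mg/kg. Females changed by -0.12 (SE 0.20, edgeR adjusted p = 1.0) at 5 mg/kg, with overlapping groups. The difference between the sexes in the change was 0.55 (SE 0.28, edgeR adjusted p = 0.408), so a change particular to males was not shown.

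Nampt, the rate-limiting enzyme of NAD salvage from nicotinamide, was also called between the sexes without treatment. Male controls read 6.53, 1.62, 14.4, 7.38 and 11.7 CPM and female controls read 24.7, 19.2, 33.4, 25.5 and 22.4 CPM. All female controls lay above all male controls, by 1.59 on the log2 scale (SE 0.45, edgeR adjusted p = 0.0413). This call too was lost without 1 mouse, male control 102 (edgeR adjusted p = 0.14) or female control 153 (0.11), and with mouse 355 included (0.138). The other Nampt probe differed by 1.04 (SE 0.84, edgeR adjusted p = 0.727). Qprt and Nampt were the 2 of 8 genes called between control mice of the 2 sexes, beside 3.89% of all genes. In males the reading at 0.5 mg/kg was 33.8, 18.1, 13.7, 6.31 and 41.8 CPM and at 5 mg/kg was 20.4, 27.1, 29.2, 29.7 and 24.01 CPM. The males at 5 mg/kg were all above the controls, and those at 0.5 mg/kg overlapped them, with 3 of 5 higher than every control. The log2 fold change was 1.06 (SE 0.45, edgeR adjusted p = 0.35) at 0.1 mg/kg, 1.45 (SE 0.45, adjusted p = 0.0969) at 0.5 mg/kg and 1.65 (SE 0.45, adjusted p = 0.0136) at 5 mg/kg. The call at 0.5 mg/kg is close to the threshold and was lost in 7 of 10 fits that each left out 1 mouse. Females ranged from 12.04 to 50.4 CPM over all doses, with a change of 0.28 (SE 0.44, edgeR adjusted p = 1.0) at 5 mg/kg. The sexes differed in the change at 5 mg/kg by -1.36 (SE 0.62, edgeR adjusted p = 0.357). These levels are low: male controls held an estimated 0 to 5 Nampt molecules and males at 5 mg/kg 11 to 19. These numbers are not scaled to the yield of a library, which was higher in males at 5 mg/kg. Of the genes called lower there, Afmid and Qprt did not fall in them. The median was 119 molecules in male controls and 124 at 5 mg/kg for Afmid, and 40 and 51 for Qprt. For Kynu it was 107 and 96, and for Haao 254 and 227.

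Acmsd, the enzyme that diverts the pathway away from NAD, had few counts, with an estimated 0 to 27 molecules per library. Female controls read 21.9, 45.1, 17.3, 7.71 and 13.96 CPM, and females at 5 mg/kg read 0, 3.71, 6.22, 3.29 and 5.38 CPM. The 5 treated females were all below the controls, but the log2 fold change of -2.51 (SE 0.96, edgeR adjusted p = 0.219) did not pass. Without the filter on low counts it was called, with an adjusted p of 0.0463 by edgeR. Male controls read 9.50, 11.8, 0, 9.05 and 17.5 CPM and males at 5 mg/kg read 3.24, 1.84, 3.59, 3.62 and 1.13 CPM. The male groups overlapped because of the control with no read, and the change was -1.83 (SE 0.94, edgeR adjusted p = 0.243). Females at 0.5 mg/kg had 8.22 ± 4.07 CPM (SD, n = 4) and females at 0.1 mg/kg had 11.7 to 18.7 CPM in 4 mice and 83.3 CPM in the other.

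Acmsd and Qprt stand at both exits of the same branch, and the log2 ratio of their probes was formed within each library. The scaling of a library enters only through the prior count of 2, which sets the ratio where Acmsd had no read, and with DESeq2's size factors the difference in females at 5 mg/kg was -2.82. Probes capture RNA with different efficiency, so only differences in the ratio between groups are read here. The ratio was -2.23 ± 1.002 in female controls (SD, n = 5) and -5.04 ± 2.16 in females at 5 mg/kg. Single females at 5 mg/kg stood at -8.75, -4.30, -3.61, -5.01 and -3.52, all below the lowest female control at -3.36. This difference of -2.81 gave p = 0.00794 in a two-sided exact permutation test, the smallest value possible with 5 against 5 mice, and 0.0476 after adjustment over 6 comparisons. Leaving out mouse 451, which had no Acmsd read, moved the difference to -1.88, and counting in molecules moved it to -1.40, both with an exact permutation p of 0.0159. Most of the difference lay in Acmsd, which changed by -2.51 in these females, whereas Qprt changed by -0.12. The Acmsd change by itself was not called (edgeR adjusted p = 0.219), and these females held an estimated 0 to 2 Acmsd molecules each. In males the ratio was -4.80 ± 3.00 in controls and -5.05 ± 0.61 at 5 mg/kg, a difference of -0.26 (exact permutation p = 0.937). That comparison rested on male control mouse 103, whose Acmsd probe had no read and whose ratio was -10.1. Without it the difference was -1.59, with an exact permutation p of 0.0159, adjusted p = 0.0476. At 0.1 and 0.5 mg/kg males differed from controls by 0.16 and -1.07 and females by 0.31 and -1.06, with exact permutation p values from 0.143 to 0.976.

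**Figure D3:**
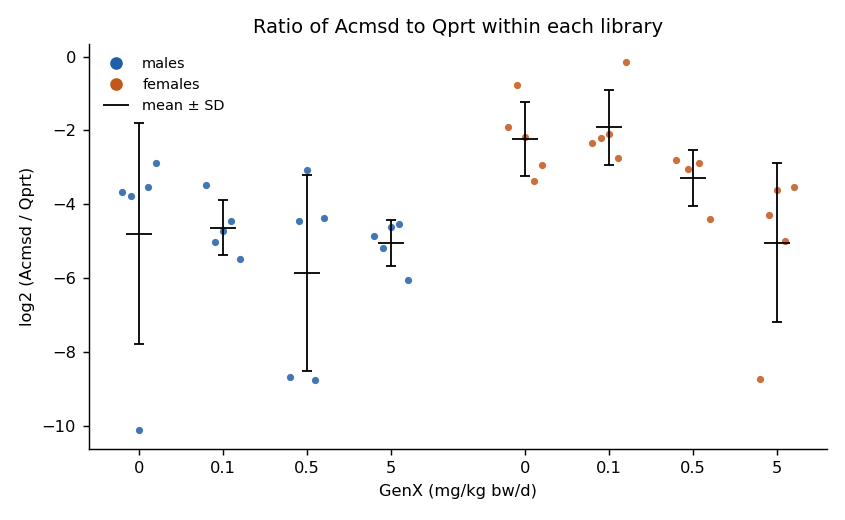
Log2 ratio of Acmsd to Qprt (vertical axis) in each mouse by dose of GenX, males in blue and females in orange, with the mean and SD in black. The 5 females at 5 mg/kg lie below the 5 female controls, and the points under -8 are libraries without an Acmsd read, set by a prior count of 2.

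Nnmt was covered by 1 probe, for which each of the 40 libraries, mouse 355 included, held 0 reads. A limit of 3 reads corresponds to 0.193 to 0.29 CPM. It covers error in counting reads only and is not a limit on captured molecules, since the first count peak was at 20.8 to 49.8 reads. No level of Nnmt in these livers can be read from a probe that never gave a count, and the planned ratio of Nnmt to Nampt could not be formed.

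Of the 8 detected genes, Afmid, Kmo and Kynu had a single probe, and 5 other probes, of Tdo2, Haao, Qprt and Nampt, could be tested. In the 30 tests of these probes against controls, edgeR called none, 2 had an unadjusted p below 0.05, and DESeq2 called 1, the second probe of Tdo2 in males at 5 mg/kg. That probe changed by -0.51 (SE 0.22), with an adjusted p of 0.176 by edgeR and 0.0837 by DESeq2. The second probe of Haao moved with the first in males at 5 mg/kg (-1.37, SE 0.90, edgeR adjusted p = 0.455), as did that of Nampt (0.86, SE 0.83, adjusted p = 0.781). The second probe of Qprt took the opposite sign, with 0.60 (SE 0.46, edgeR adjusted p = 0.718) at 0.5 mg/kg and 0.29 (SE 0.46, adjusted p = 0.98) at 5 mg/kg. It read 3.18 to 18.99 CPM in male controls and 7.04 to 20.3 CPM in males at 5 mg/kg, so the decrease in Qprt rests on the first probe. The other probe of Acmsd had reads in 3 of 39 mice and was not tested. Neither Qprt probe's place in its transcript is given in the sources used here.

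**Figure D4:**
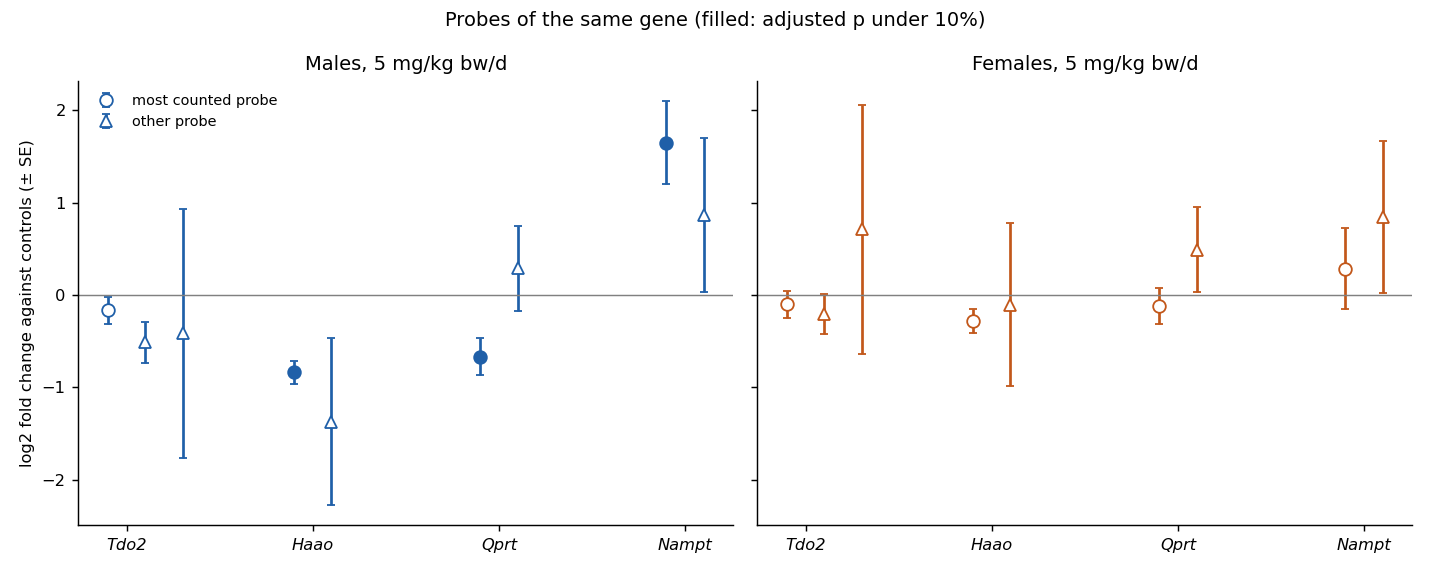
Log2 fold change at 5 mg/kg (vertical axis, ± SE) of each probe of the 4 genes with more than 1 testable probe, in males (left) and females (right); circles are the most counted probe, triangles the others, filled symbols passed a false discovery rate of 10% by edgeR. In males the second probes of Haao and Nampt lie on the same side of 0 as the first and that of Qprt on the other.

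Beyond these genes, 43 others of tryptophan and NAD metabolism were listed, of which 35 could be tested. In males at 5 mg/kg, edgeR called 4 of the 35 (1 higher, 3 lower), beside 9.35% of all genes, and in males at 0.5 mg/kg 1, beside 2.61%. DESeq2 called 6 and 1 there, and its share over all genes is not given here. In females edgeR called 1 at 5 mg/kg, beside 4.09%, and these 3 edgeR counts are near what those shares give for 35 genes. In females at 0.5 mg/kg and at 0.1 mg/kg none was by edgeR or DESeq2, with 1 and 3 of the 35 at an unadjusted p below 0.05. In males at 0.1 mg/kg neither tool called any, with 3 at an unadjusted p below 0.05. The median log2 fold change of the 35 at 5 mg/kg was 0.0 in males and 0.04 in females. None of the 8 tested genes for NAD synthesis and salvage, such as Nmnat1 and Naprt, and none of 12 tested NAD consumers, such as the sirtuins and PARPs, was called in any of the 6 comparisons by edgeR or DESeq2. At an unadjusted p below 0.05 stood 3 of the 8 in females at 5 mg/kg and none in the other groups, and 0 to 2 of the 12 in each group.

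Aox3, a liver aldehyde oxidase that can oxidize N-methylnicotinamide, showed the largest change among the 5 called genes of this list. It fell from 525 ± 149 CPM in male controls (SD, n = 5) to 79.1 ± 25.5 CPM at 5 mg/kg, without overlap of the groups, a log2 fold change of -2.73 (SE 0.31, edgeR adjusted p = 5.02e-09). Female controls measured 90.5 ± 39.8 CPM, -2.54 relative to male controls (SE 0.31, edgeR adjusted p = 1.23e-07). Females at 5 mg/kg measured 54.1 ± 34.9 CPM, a change of -0.74 (SE 0.30, edgeR adjusted p = 0.251). The sexes differed in the change by 1.99 (SE 0.42, edgeR adjusted p = 0.00843). In males at 5 mg/kg, Aox3, Qprt and Nampt, which were all called between untreated males and females, measured 79.1, 87.1 and 26.1 CPM, beside 90.5, 85.1 and 25.1 CPM in female controls. This comparison was chosen after the values were seen and was not tested. The change in males and the difference between untreated sexes share the same male controls, so they are not independent. Afmid, Kynu and Haao, also called lower in males at 5 mg/kg, were not called between untreated males and females. The call between untreated males and females was kept for Aox3 without each mouse in turn and was lost for Qprt and Nampt without male control 102, with mouse 355 included and on their other probes. The difference of the sexes in the change of Aox3 was not called with mouse 355 included (edgeR adjusted p = 0.339) or on its other probe (0.4), a probe examined after the data were seen.

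Nadk, which phosphorylates NAD to NADP, was called higher at 5 mg/kg in both sexes. It measured 153 ± 38.1 CPM in male controls and 238 ± 12.5 CPM in males at 5 mg/kg (log2 fold change 0.64, SE 0.17, edgeR adjusted p = 0.00805). In females the means were 155 ± 20.3 and 230 ± 47.0 CPM (0.57, SE 0.17, edgeR adjusted p = 0.0456). The groups did not overlap in either sex. The call in males was kept without each mouse in turn. In females it was lost without control 151 or 155 or treated mouse 452 or 455 (edgeR adjusted p from 0.107 to 0.188) and without the filter on low counts (0.102). With mouse 355 included neither sex passed (edgeR adjusted p = 0.203 in males, 0.326 in females). On the other Nadk probe neither sex passed either (edgeR adjusted p = 0.908 in males). Ido2, a relative of the tryptophan-opening enzyme Ido1, fell in males at 5 mg/kg from 17.4 ± 11.6 to 3.04 ± 3.40 CPM (-2.51, SE 0.71, edgeR adjusted p = 0.0172), with overlapping groups. The Ido2 call was lost with only the groups compared (edgeR adjusted p = 0.112). Gcdh, which oxidizes the glutaryl-CoA formed when tryptophan is fully degraded, fell from 579 ± 36.4 to 444 ± 42.9 CPM (-0.38, SE 0.13, edgeR adjusted p = 0.0834), a call lost in 7 of 10 fits that each left out 1 mouse. Aadat, an aminotransferase that turns kynurenine to kynurenic acid, measured 80.3 ± 24.7 CPM in male controls and 134 ± 27.8 CPM at 0.5 mg/kg (0.74, SE 0.22, edgeR adjusted p = 0.0683). This call was lost in 6 of 10 fits that each left out 1 mouse, and with size factors (edgeR adjusted p = 0.108), summed probes (0.197), only the groups compared (0.112) or mouse 355 included (0.327). On the other Aadat probe, examined after the data were seen, the change was 0.13 (edgeR adjusted p = 1.0). At 5 mg/kg Aadat stood at 88.8 ± 9.63 CPM.

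**Figure D5:**
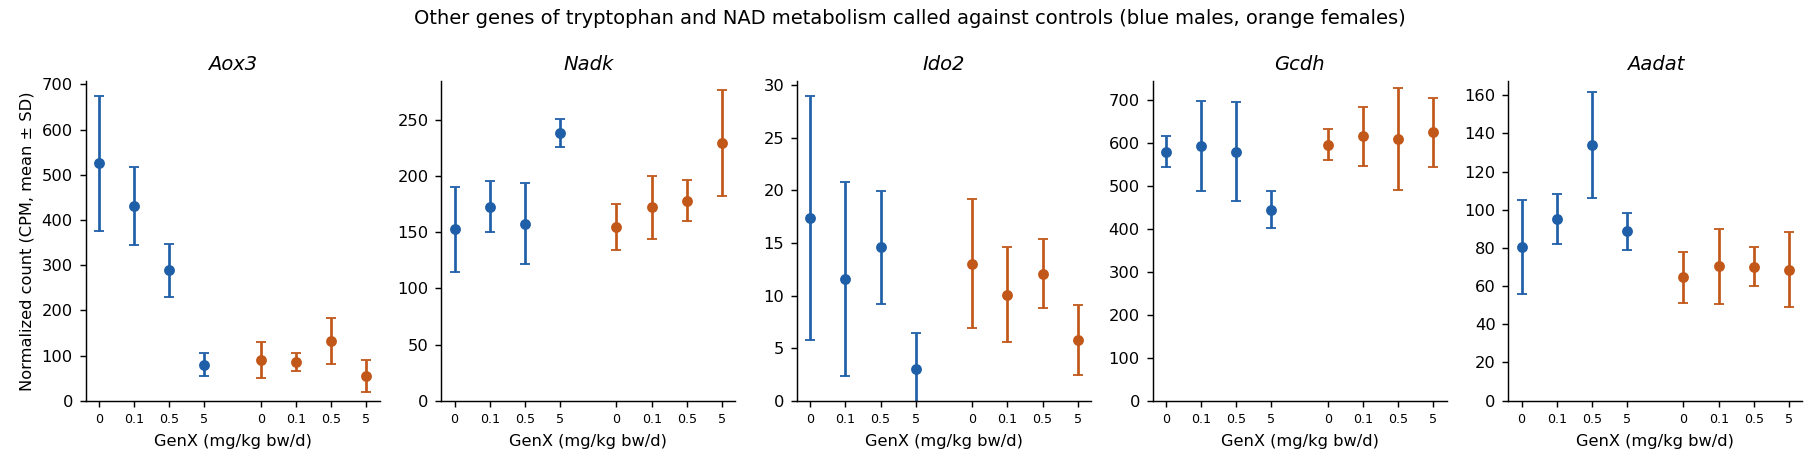
Mean normalized count (CPM, ± SD, linear axes from 0, bars cut at 0) of the 5 other genes of tryptophan and NAD metabolism called against controls in at least 1 comparison, by dose of GenX in males (blue) and females (orange). Aox3 falls with dose in males to the female range, and Nadk is highest at 5 mg/kg in both sexes.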

How the data were processed

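The authors deposited raw counts, reads per TempO-Seq probe in each of 40 mice, not normalized. The paper states that reads were assigned to probes and analysed with DESeq2. The submitters' processing notes name bcl2fastq 2.17.1.14, Bowtie and mm10. Mice were grouped by the labels' sex and dose, with 5 animals in each of 8 groups. Library 355 was left out by the depth criterion of the paper (2 SD below the mean of 13041142 reads, a limit of 9680193).

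Counts were tested with edgeR 4.0.16 in R 4.3.3 (TMM scaling, the default low-count filter, 39 libraries, a coefficient per group, the quasi-likelihood test) and adjusted by Benjamini-Hochberg over 17877 probes at 10%. A gene is represented by its most counted probe. Where groups are said not to overlap, the share of all genes that separate in this way is not given. CPM are after TMM scaling. The ratio of Acmsd to Qprt used log2 CPM with a prior count of 2 and two-sided exact permutation tests (SciPy 1.17.1). All 9 genes are named, as are genes of the wider list that were called against controls. The genes, lists and tests were chosen with earlier results of these data known. Alternatives were DESeq2 1.42.0, its size factors, no filter, all 40 libraries, only the groups compared, summed probes, other probes, counts in molecules (reads divided by the first count peak), a prior count of 0.5, and leaving out each mouse. Shares of all genes called are those of the main edgeR fit, and none is given for the alternatives. Both tools and the finder of count peaks were tested on simulated data. Sequences are those of RefSeq. Some sequence is not reported here. Probe captures are amplified without molecular identifiers, so limits from reads cover error in counting reads only, not in the capture of molecules. Probe capture differs between genes, so levels were not compared between genes.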

Additional observations from a re-analysis of the deposited data

Results flagged for a closer look

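The change of Afmid at 5 mg/kg differed between the sexes by 0.99 on the log2 scale in edgeR's test of that difference.

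In 12 of 72 groups of mice examined by Dixon's ratio, 1 mouse stood far from the others of its group. For Kmo these were male control mouse 102 at 416 CPM (the others at 539 to 582), mouse 405 of the males at 5 mg/kg at 421 CPM (562 to 595) and mouse 255 of the females at 0.1 mg/kg at 718 CPM (403 to 466). For Haao they were female control 152 at 489 CPM (670 to 738) and mouse 354 of the females at 0.5 mg/kg at 562 CPM (717 to 746). For Acmsd they were mouse 201 of the males at 0.1 mg/kg at 13.2 CPM (3.25 to 4.28) and mouse 255 at 83.3 CPM (11.7 to 18.7). Qprt in female control 155 stood at 107 CPM (77.0 to 81.8). The log2 ratio of Acmsd to Qprt stood at -10.1 in mouse 103, -0.154 in mouse 255, -4.41 in mouse 354 and -8.75 in mouse 451. Mice 103 and 451 had no Acmsd read, so the prior count set their ratios. Mouse 255 was thus high for Kmo and Acmsd, and its ratio is formed from the same Acmsd count.

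The library of mouse 355, which entered no comparison, had both Nampt probes above the female controls. The most counted one read 75.7 CPM (controls 19.6 to 34) and the other 93.1 CPM (controls 3.63 to 14.3), each with the prior count added. In the same library Afmid read 36, Kmo 18, Kynu 22.4 and Haao 18.5 CPM, each below all female controls, and Tdo2 read 695 CPM (controls 1030 to 1660). It held an estimated 92099 molecules.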

How the results depend on the processing

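Including mouse 355 changed most counts of called genes: in males 0 of 8 at 0.5 mg/kg and 2 at 5 mg/kg (Kynu and Nampt), in females 0 at 5 mg/kg, 0 between control mice of both sexes, 0 for the sex difference at 5 mg/kg and 0 for the male step from 0.5 to 5 mg/kg. In the wider list it left 0 called in males at 0.5 mg/kg, 2 in the males of the highest dose and 0 in the females. Without the low-count filter, 2 of the 8 were called in females at 5 mg/kg and 2 of the wider list in males at 0.5 mg/kg. The sex difference at 5 mg/kg gave 2 calls with DESeq2, with its size factors and in molecules. The wider list at 0.5 mg/kg in males gave 0 with size factors, 0 with probes summed and 2 in molecules, and in females at 5 mg/kg 2 with probes summed and 4 in molecules. The other Qprt probe reversed the male changes, to 0.60 at 0.5 mg/kg and 0.29 at 5 mg/kg. The ratio of Acmsd to Qprt in males reversed to -0.28 at 0.1 mg/kg and 0.079 at 0.5 mg/kg in molecules, and to 0.084 at 5 mg/kg with a prior count of 0.5. The causes were not tested.

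Leaving out 1 mouse at a time gave males 2 to 3 calls at 0.5 mg/kg and 5 at 5 mg/kg, females 1 call at 5 mg/kg, and 0 to 2 between the control groups. Without male control 102, neither Qprt (edgeR adjusted p = 0.125) nor Nampt (0.14) was called between the sexes; Qprt was lost without male control 103 (0.136) and Nampt without female control 153 (0.11). In males at 0.5 mg/kg, the Nampt call was lost without controls 101, 102, 104 or 105 or mice 301, 302 or 305 (edgeR adjusted p from 0.103 to 0.324), and also with size factors (0.122) or only the groups compared (0.294). In the wider list, males at 0.5 mg/kg gave 0 to 1 calls, and Aadat was lost without male controls 102, 103 or 104 or mice 301, 302 or 303. Females at 5 mg/kg gave 0 to 2, with 0 without mice 452 or 455, and Nadk was lost there without controls 151 or 155 or mice 452 or 455. Gcdh in males at 5 mg/kg was lost without controls 102, 103, 104 or 105 or mice 402, 403 or 404 (edgeR adjusted p from 0.113 to 0.195). The ratio ranged from -1.17 to 0.64, -2.41 to -0.35 and -1.59 to 0.22 in males at 0.1, 0.5 and 5 mg/kg, and from -0.13 to 0.68, -1.34 to -0.69 and -3.19 to -1.88 in females. Without male control 103 the ratio passed 10% in males at 0.1 and 0.5 mg/kg (adjusted p = 0.0952 for both) and at 5 mg/kg (0.0476), with a difference of -1.17 at 0.1 mg/kg.

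Low molecule numbers limit Acmsd and Nampt. The ratio of Nnmt to Nampt was not run, since Nnmt had no read. No paired analysis was possible because the animal numbers are not shared between groups.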
